A study of Mus musculus with 8 samples.

Results

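The xenobiotic metabolism genes described here are 131 of the 21887 protein-coding genes on mouse chromosomes 1 to 19, X and Y in a RefSeq table of GRCm38.p6. They were chosen by symbol: cytochrome P450 families Cyp2 (48 genes), Cyp3a (9) and Cyp4 (20), UDP-glucuronosyltransferases Ugt1a (9) and Ugt2 (10), glutathione S-transferases Gsta (4), Gstm (7), Gstp (3), Gstt (4) and Gsto (2), and sulfotransferases Sult1 (6) and Sult2 (9). The acetylated histone marks H3K27ac and H3K9ac were profiled by CUT&Tag, in which an antibody against a mark directs a transposase to the chromatin that carries it. The cells, labelled small intestinal epithelial cells, came from crypts freed with EDTA and dissociated with trypsin, and were taken from male C57BL/6J mice, 9 weeks of age, that were either fed (Fed) or fasted for 24 h (Fast), each without tetracycline or after 21 days of the antibiotic. This gave 4 groups for each mark and 8 samples, and each sample had 2 deposited peak lists, called list 1 and list 2 after their deposited names. The number of mice behind a list, any pooling and the tetracycline dose are not given in the sources used here. Lists were treated as separate. If both lists of a sample came from the same cells, the p-values measure technical spread and are too small.

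These enzymes work in sequence. Cytochromes P450 of the Cyp2 and Cyp3a families oxidise drugs, toxins, steroids and fatty acids, and many Cyp4 enzymes oxidise fatty acids at their far end. Ugt, Gst and Sult enzymes then attach glucuronic acid, glutathione or sulfate, which makes the products easier to excrete. The gut epithelium is the first tissue to meet swallowed compounds, and the receptors PXR, CAR, AHR, PPARα and the factor NRF2 are known to switch on many of these genes. H3K27ac is found at active promoters and enhancers, and H3K9ac mainly at active promoters.

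Marked genes are those with at least part of a peak in the 1 kb on either side of the first or last annotated base. Markers of the labelled cells were in place: all 10 epithelial markers examined, Vil1, Epcam and Cdx2 among them, had H3K27ac in all 8 lists. Of 10 liver markers 0 to 2 were marked in an H3K27ac list, and Alb, Fgb, Fgg, Hp, Ahsg, Serpina3k and Cyp7a1 were marked in none of them. F2, a clotting factor of liver among these 10, had H3K27ac in 1 Fed and 4 Fast lists, with means of 163.5 and 866.75 bases (difference 703.25, exact permutation p = 0.0556). Of 10 immune markers 2 to 5 had H3K27ac in a Fed list and 4 or 5 in a Fast list. Ptprc had H3K27ac in 0 Fed and 4 Fast lists, and Coro1a in 3 Fed and 0 Fast lists. Of 10 stromal markers 0 to 2 had H3K27ac in a list. H3K9ac marked 0 liver markers in a Fed list and 0 to 3 in a Fast list, 0 to 4 and 1 to 5 immune markers, and 0 to 2 and 0 to 4 stromal markers. The part of other cells in the results below was not tested, and in such bulk profiles fewer cells with a mark and less of the mark per cell cannot be told apart. Peaks numbered 32392 to 68545 in the H3K27ac lists and 17249 to 99050 in the H3K9ac lists, and the depth of reads is unknown. A pair of H3K9ac lists stood apart with 99050 and 97764 peaks, and both were list 1 of a Fast sample.

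The start regions of these genes, read from RefSeq (GRCm38.p6), frame what follows. The table of start regions, each 250 bases upstream to 50 bases downstream of a start, held 111 of the 131 genes. The following 4 are shown because results below turn on these genes: Gsta1 and Cyp4v3 were marked in all 16 lists, Gsta2 had H3K9ac only in Fast lists, and Cyp3a11 carried H3K27ac in every list. Capitals mark the motifs searched on both strands: TATAAA (a core promoter box), GCGTG (aryl hydrocarbon receptor core), AGGTCA (nuclear receptor half-site), CAAAGTCCA (HNF4A motif), TTTATG (CDX2 core) and TGACNNNGC (antioxidant response element core). The antioxidant core can overlap the half-site, and the core promoter box can overlap the CDX2 core, where 1 of a pair is read on the other strand. The regions are chr9:78230419-78230718, plus strand for Gsta1, chr9:78347096-78347395, minus strand for Gsta2, chr8:45333114-45333413, minus strand for Cyp4v3 and chr5:145879805-145880104, minus strand for Cyp3a11, each printed in the direction of transcription.
Gsta1: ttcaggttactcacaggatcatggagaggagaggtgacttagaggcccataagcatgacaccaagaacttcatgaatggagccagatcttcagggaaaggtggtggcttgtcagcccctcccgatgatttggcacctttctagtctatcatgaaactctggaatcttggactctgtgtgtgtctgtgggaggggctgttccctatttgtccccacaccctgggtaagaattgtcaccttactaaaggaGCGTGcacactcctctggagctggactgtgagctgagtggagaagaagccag
Gsta2: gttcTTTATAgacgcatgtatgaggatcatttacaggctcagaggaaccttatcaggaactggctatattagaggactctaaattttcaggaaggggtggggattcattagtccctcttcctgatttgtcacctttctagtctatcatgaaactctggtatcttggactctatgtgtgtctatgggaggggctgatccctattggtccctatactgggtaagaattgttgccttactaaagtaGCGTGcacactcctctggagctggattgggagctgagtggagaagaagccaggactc
Cyp4v3: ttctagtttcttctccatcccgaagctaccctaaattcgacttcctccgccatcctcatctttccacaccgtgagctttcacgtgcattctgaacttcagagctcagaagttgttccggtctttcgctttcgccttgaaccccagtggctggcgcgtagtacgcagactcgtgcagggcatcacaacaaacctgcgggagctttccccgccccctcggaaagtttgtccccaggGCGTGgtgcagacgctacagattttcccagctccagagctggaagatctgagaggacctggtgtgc
Cyp3a11: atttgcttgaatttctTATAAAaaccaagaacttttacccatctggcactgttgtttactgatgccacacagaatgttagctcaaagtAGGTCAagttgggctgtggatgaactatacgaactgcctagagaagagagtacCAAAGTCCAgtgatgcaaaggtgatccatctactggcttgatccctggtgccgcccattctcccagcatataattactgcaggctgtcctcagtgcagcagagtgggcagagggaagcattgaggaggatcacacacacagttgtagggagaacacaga
The Gsta1 and Gsta2 regions each held GCGTG close to the start and 2 CpG dinucleotides. The Cyp4v3 region held 17 CpG dinucleotides. The Cyp3a11 region held AGGTCA, CAAAGTCCA and TATAAA and 2 CpG dinucleotides. Its TATAAA lay at bases -234 to -229 from the start, and the TATAAA match of Gsta2 at -246 to -241 on the opposite strand.

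These start regions were poor in CpG. The median was 2 CpG in the 111 genes and 13 in 17492 genes, and 10.8% of the 111 held 10 or more against 57.2% of all. TATAAA occurred in 32.4% of the 111 and 13.3% of all, AGGTCA in 25.2% and 14.5%, CAAAGTCCA in 9.01% and 0.417%, and TTTATG in 12.6% and 10.2%. GCGTG occurred in 19.8% and 38.5%, and TGACNNNGC in 6.31% and 13.1%. CAAAGTCCA was present in 4 of 9 Cyp3a and 6 of 41 Cyp2 start regions. For the split by mark, the mark was read at the outer gene end on the start side, and the sequence at the nearest tabled start. These lay over 1 kb apart for 4 of the 111 genes: Sult1a1, Cyp2j6, Cyp3a13 and Cyp2j9. Sult1a1 is among the 43 below. Starts with H3K27ac in all 8 lists had a median of 5 CpG in the 28 xenobiotic genes and 22 in all 5647 such genes. The 43 xenobiotic starts without H3K27ac in any list held CAAAGTCCA at 7, AGGTCA at 14, TATAAA at 18, TTTATG at 10, GCGTG at 4 and TGACNNNGC at 2. The 28 held these at 1, 3, 5, 3, 11 and 1. Over all genes, starts marked in no list and in all 8 held CAAAGTCCA in 0.306% and 0.460%. They held AGGTCA in 16.8% and 11.5%, TATAAA in 20.5% and 6.62%, and GCGTG in 22.1% and 55.0%. For TTTATG these shares were 14.9% and 5.68%, and for TGACNNNGC 10.8% and 15.7%.

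H3K27ac lay on about the same share of the xenobiotic genes as of all genes, and H3K9ac on a smaller share. H3K27ac marked 48 and 62 of the 131 genes in the Fed lists without tetracycline, 63 and 70 in the Fast lists without it, 55 and 71 in the Fed lists with it, and 76 and 62 in the Fast lists with it. That is 36.6% to 58.0% of these genes, where 42.9% to 50.7% of all genes were marked. H3K9ac marked 26 and 46, 46 and 36, 34 and 45, and 55 and 32 genes in the same order, or 19.8% to 42.0%, where 41.1% to 53.2% of all genes were marked. In each of the 8 H3K9ac lists the share of xenobiotic genes was below the share of all genes.

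**Figure D1:**
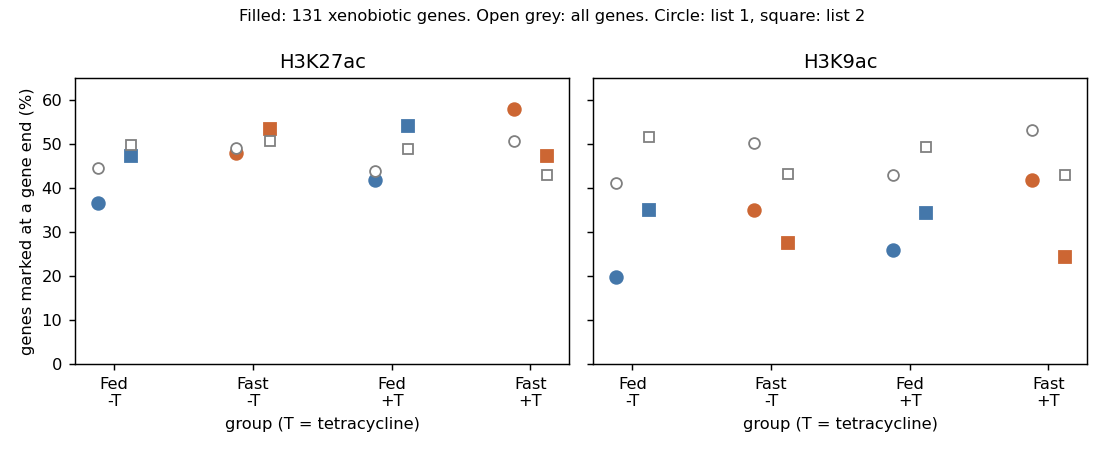
Share of genes with a peak within 1 kb of a gene end (y axis, %) in each list, by group (x axis, T is tetracycline), for H3K27ac and H3K9ac. Filled points are the 131 xenobiotic genes and open grey points all genes. In H3K9ac every filled point lies under the grey point of its list.

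Genes marked throughout told the marks apart further. H3K27ac was present in all 8 lists at 41 of the 131 genes (31.3%), where 33.6% of all genes were. H3K9ac was present in all 8 lists at 6 (4.58%), where 21.1% of all genes were. Of the 41 genes with H3K27ac throughout, 14.6% had H3K9ac throughout, against 52.3% of all such genes, and their median number of H3K9ac lists was 6 against 8. No H3K27ac list marked 44 genes (33.6%, all genes 39.4%), and no H3K9ac list marked 45 (34.4%, all genes 25.2%). None of the 16 lists marked 28 genes (21.4%, all genes 22.4%).

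The same difference stood at the start sites alone. H3K27ac covered the start itself in a mean of 42.0% of the 111 genes over the 8 lists, from 32.4% to 50.5%, and in 44.3% of 17492 genes, from 40.1% to 47.4%. H3K9ac covered it in 25.0%, from 17.1% to 32.4%, and in 40.1%, from 37.0% to 46.3%. Start-side H3K27ac in all 8 lists was found at 28 of 111 genes (25.2%), against 32.3% of all genes, and start-side H3K9ac at 4 (3.60%), against 19.4%.

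**Figure D2:**
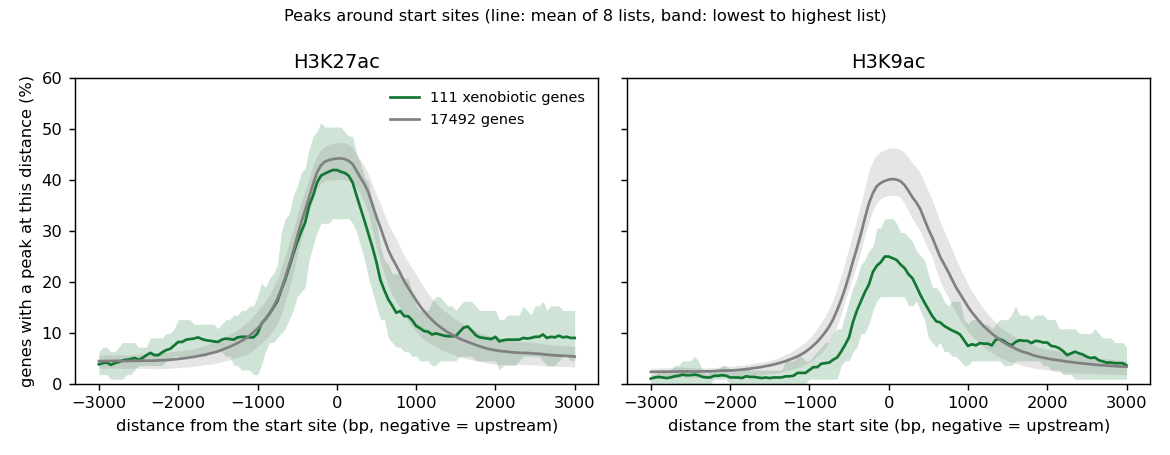
Share of genes with a peak (y axis, %) against the distance from the start site (x axis, bp) for the 111 xenobiotic genes in green and 17492 genes in grey, as the mean of 8 lists with the lowest and highest list as a band. At the start the means were 42.0% and 44.3% for H3K27ac and 25.0% and 40.1% for H3K9ac.

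A total of 6 genes were marked in all 16 lists, or 4.58% of the set, where 17.6% of all genes were. They were Gsta1, Gstm3, Gstt3 and Gsto1, which are glutathione transferases, Cyp4v3, a fatty acid hydroxylase, and Cyp4f13, of the family that oxidises leukotrienes and long fatty acids. At the start side alone, Gstt3 had H3K27ac in 7 and H3K9ac in 6 lists, and Cyp4f13 had them in 8 and 7. Covered bases, the number of bases within 1 kb of the gene ends under a peak, show how wide the mark was. For Cyp4v3, H3K27ac covered 1426 and 1562 bases in the Fed lists without tetracycline, 1732 and 1805 in the Fast lists without it, 1570 and 1663 in the Fed lists with it, and 1235 and 1735 in the Fast lists with it. H3K9ac covered 1172 to 1490 bases of Cyp4v3, and all 8 lists were within that narrow range. For Gsto1, a transferase that also reduces dehydroascorbate, H3K27ac covered 1426 to 2385 bases and H3K9ac 1375 to 2207.

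Families differed widely. Among oxidising enzymes, Cyp2 had H3K27ac in 7 to 23 of 48 genes in a list and in all 8 lists at 5 genes. Those 5 were Cyp2b10, a drug-inducible P450, Cyp2d22, Cyp2d26, Cyp2j9 and Cyp2s1. The Cyp2c subfamily of 15 genes had none marked throughout, and its leading members were Cyp2c65 and Cyp2c66 with 7 H3K27ac lists each and Cyp2c55 with 5. Cyp2e1, the ethanol-oxidising P450 of liver, was marked in 1 H3K27ac and 1 H3K9ac list. Cyp3a had H3K27ac in 2 to 4 of 9 genes: Cyp3a11 and Cyp3a25 in all 8 lists, and Cyp3a16, Cyp3a41a, Cyp3a41b and Cyp3a44 in none. Cyp3a13 was marked in 6 lists at its outer end, with 0 to 104 covered bases, and in all 8 when any tabled start counted. Cyp3a11, a major drug-oxidising P450 under PXR control, had 465 to 1678 H3K27ac bases and was marked by H3K9ac in 3 Fed and 3 Fast lists. Cyp4 had H3K27ac throughout at 7 of 20 genes: Cyp4f13, Cyp4f14, Cyp4f16, Cyp4f37 and Cyp4f40 of Cyp4f, and Cyp4b1 and Cyp4v3. At the start side alone, Cyp4f37 had it in 1 list and the others in 8. None of the 8 Cyp4a genes was marked throughout.

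Among conjugating enzymes, Gstm, Gstp and Gsto carried H3K27ac at nearly every member. Gstm1 had 1071 to 1926 H3K27ac bases and H3K9ac in 3 Fed and 2 Fast lists. Gstp1 had 541 to 2884 H3K27ac bases and H3K9ac in 4 Fed and 3 Fast lists. All 3 Gstp and both Gsto genes and 6 of 7 Gstm genes had H3K27ac in all 8 lists. At the start side alone, 2 Gstp, 2 Gsto and 5 Gstm genes did. Gstp2 had H3K27ac in 8 lists and H3K9ac in none, the only one of the 41 genes with H3K27ac throughout and no H3K9ac. Of Ugt2, only Ugt2a3 and Ugt2b34 had H3K27ac throughout, while Ugt2a1, Ugt2a2, Ugt2b1, Ugt2b5 and Ugt2b37 had it in none. Of Sult1, Sult1d1 had it throughout and Sult1c1 and Sult1e1 had neither mark in any list. Sult1c2 had H3K27ac in 7 lists. Sult1a1, a phenol sulfotransferase, had none at its outer ends, and with any tabled start it had H3K27ac in 1 Fed and 3 Fast lists. All 8 Sult2a genes, hydroxysteroid sulfotransferases best known from liver, lacked H3K27ac in every list, whereas Sult2b1, a cholesterol sulfotransferase of epithelia, had it in all 8. The Sult2a cluster on chromosome 7, 871 kb long, held 0 to 7 H3K27ac peaks in a list, and at most 0.285% of it was covered. The Gstm cluster on chromosome 3 was covered over 11.3% to 29.2% of its length.

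**Figure D3:**
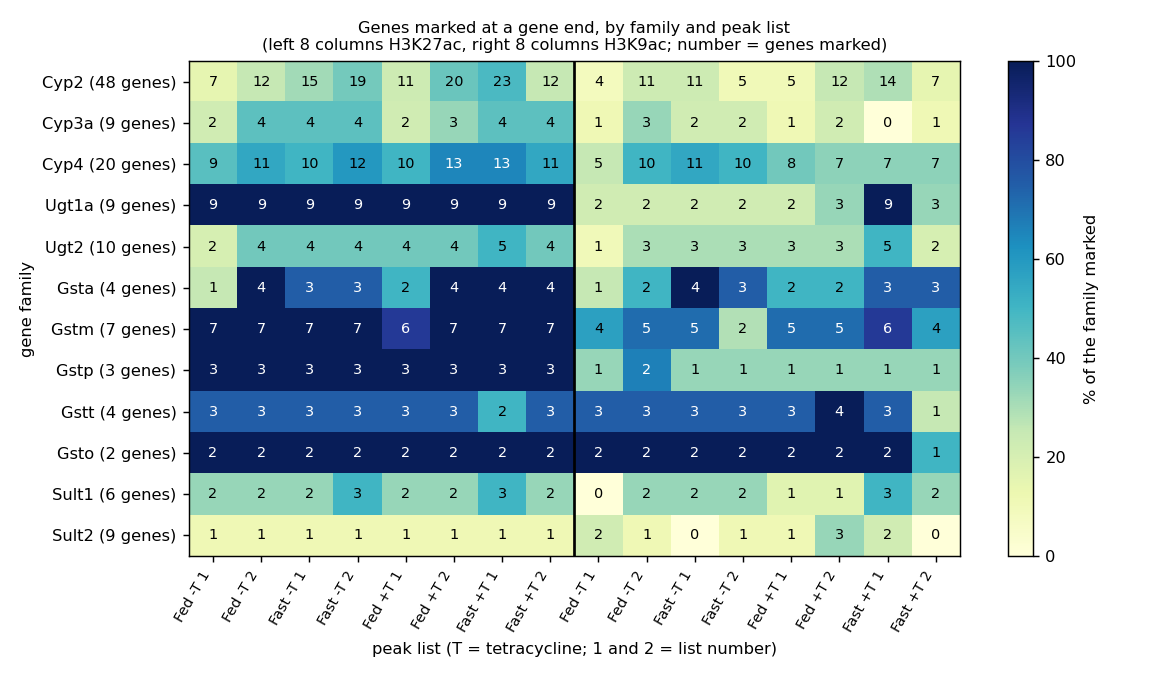
Number of genes marked (numbers) and share of the family (colour, %) for the 12 families (rows) in the 16 peak lists (columns), H3K27ac on the left and H3K9ac on the right. Ugt1a had all 9 genes marked by H3K27ac in every list, and Sult2 had 1 of 9.

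The 9 Ugt1a genes need a separate reading, because alternative first exons are joined to shared last exons and all 9 end at either of 2 neighbouring positions. H3K27ac lay near that shared end in all 8 lists, so each of the 9 counted as marked. At the start side, only Ugt1a1, which conjugates bilirubin, and Ugt1a7c had H3K27ac in all 8 lists among the 8 genes with a tabled strand. Ugt1a9 had it in 7 lists, Ugt1a6a in 6, Ugt1a8 in 2, and Ugt1a2, Ugt1a5 and Ugt1a10 in 0. In the Fast list 1 with tetracycline, 9 Ugt1a genes had H3K9ac, against 2 or 3 in the other 7 lists. In all, 13 xenobiotic genes had an end within 2 kb of another's. Another 6, Cyp2t4, Cyp2w1, Gsta2, Gstt3, Sult1a1 and Sult2b1, had an end within 2 kb of an end of a gene outside the set. A peak there can lie near both genes. How reads that match near-identical genes were treated is not given in the sources used here, so members with close copies, such as those of Cyp2c, Cyp3a, Gsta and Sult2a, are uncertain individually.

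Fasting was compared with feeding within each tetracycline state. The number of genes marked by H3K27ac averaged 59.0 in the Fed and 67.75 in the Fast lists, a difference of 8.75, smaller than the pooled SD of 9.33 between lists of a group. It was 11.5 without tetracycline and 6.0 with it. As mean shares these were 45.0% in Fed and 51.7% in Fast lists, where all genes had 46.9% and 48.4%. For H3K9ac the averages were 37.75 and 42.25, a difference of 4.5 with a pooled SD of 11.99. The shares were 28.8% and 32.3%, and 46.3% and 47.5% for all genes. Both differences in the number of xenobiotic genes turned with the list number. From list 2 of each sample alone they were -0.5 for H3K27ac and -11.5 for H3K9ac, and from list 1 alone 18.0 and 20.5. With equal numbers of top-scoring peaks the H3K27ac difference was 5.25 and the H3K9ac difference -7.75. In order of rising peak number, from 32392 to 68545, the H3K27ac lists marked 55, 48, 62, 62, 71, 70, 76 and 63 genes. From 17249 to 99050 peaks, the H3K9ac lists marked 26, 34, 36, 46, 32, 45, 55 and 46 genes. The part of peak number in the differences was not tested.

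Few genes switched with feeding. No xenobiotic gene had H3K27ac in all 4 Fast and no Fed list (all genes 0.0959%) or in all 4 Fed and no Fast list (0.0137%). For H3K9ac, Gsta2 alone was marked in each of the 4 Fast lists and in no Fed list (0.0777% of all genes), and no gene showed the opposite (0.0411%). By 3 or more lists, 4 genes had H3K27ac in more Fast lists (0.841% of all genes): Cyp2c38 in 4 Fast and 1 Fed, and Cyp2t4, Cyp3a59 and Sult1b1 in 3 Fast and 0 Fed. Cyp4a12b had it in 3 Fed and 0 Fast lists (0.256%). For H3K9ac, Gsta2 and Gstm6 were marked in more Fast lists by this margin (1.04%), and Cyp2s1 in 4 Fed and 1 Fast (0.726%).

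These calls rest on single gene ends. Sult1b1, which sulfates phenols and thyroid hormone, has a further tabled start inside the gene, and with any tabled start it had H3K27ac in 4 Fed and 4 Fast lists. Gstm6 had H3K9ac in 2 Fed and 3 Fast lists when any start counted. Cyp2c38, Cyp2t4 and Cyp3a59 kept their counts with any start. When each list was reduced to the same number of top-scoring peaks, they were marked in 0 Fed lists each and in 1, 2 and 2 Fast lists. Cyp2r1 and Gstt1 each had H3K27ac in 4 Fed and 2 Fast lists with any tabled start. The same counts held at their gene ends with equal peak numbers. Of the 131 genes, 34 had H3K27ac at a gene end in more Fast lists (26.0%, all genes 13.2%). Another 8 had it in more Fed lists (6.11%, all genes 9.44%).

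Gsta2, a glutathione transferase induced by electrophiles, had 0 H3K9ac bases in all 4 Fed lists. Fast lists held 246 and 408 bases without tetracycline and 629 and 127 with it, so the groups did not overlap. The difference of 352.5 bases reached the smallest p the design allows (0.0556, two-sided exact permutation test with 36 arrangements). The peaks were weak, with authors' scores of 56.82 to 71.61 where no deposited score is below 50, and the difference was 0.0 both with the upper 0.5 of each list's scores and with lists of equal peak number, and 31.75 with peaks of at least 500 bp (exact permutation p = 1.0 each). Its neighbour Gsta1 had H3K9ac in all 8 lists, with 415 to 2001 bases.

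Cyp2s1, an epithelial P450, showed the opposite direction. H3K9ac covered 1096 and 1318 bases in the Fed lists without tetracycline and 1443 and 1535 in those with it. It covered 0 and 0 in the Fast lists without tetracycline and 1221 and 0 in those with it. The Fast lists lay lower within each tetracycline state, with an average difference of -1042.75 bases (exact permutation p = 0.0556), while H3K27ac was present in all 8 lists. With the same number of top-scoring peaks, Cyp2s1 was still marked in 4 Fed and 1 Fast lists. Its start region (chr7:25816476-25816775, minus strand) is shown because it is CpG-rich for this gene set, with 17 CpG, and contained none of the motifs searched.
Cyp2s1: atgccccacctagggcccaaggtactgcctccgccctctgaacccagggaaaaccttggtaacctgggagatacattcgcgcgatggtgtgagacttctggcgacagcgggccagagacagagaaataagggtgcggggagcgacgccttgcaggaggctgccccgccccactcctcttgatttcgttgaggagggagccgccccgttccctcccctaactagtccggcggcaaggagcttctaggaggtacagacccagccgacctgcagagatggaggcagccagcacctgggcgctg
Sult2b1 had H3K9ac over 1384 and 1486 bases in the Fed lists and 0 and 1233 in the Fast lists without tetracycline. With tetracycline it had 1355 and 2305 in the Fed and 1208 and 0 in the Fast lists. Both Fast lists lay below both Fed lists in each state (difference -1022.25, exact permutation p = 0.0556).

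For H3K27ac, Sult1d1, which sulfates catecholamines, covered 513 and 506 bases in Fed and 758 and 907 in Fast lists without tetracycline, and 564 and 640 against 984 and 709 with it. The Fast lists were higher in each state, by 283.75 bases. Ugt2b35 covered 0 and 393 against 643 and 1144, and 430 and 812 against 927 and 839, a difference of 479.5. Gstm7 was lower in Fast lists, with 1490 and 1684 against 1132 and 1386, and 1526 and 1629 against 1375 and 1481, a difference of -238.75. All 3 reached the smallest p (0.0556, exact permutation test). With a window of 2.5 kb the Gstm7 difference was -206.5 (exact permutation p = 0.333), while Sult1d1 and Ugt2b35 stayed at the smallest p. The Sult1d1 start region (chr5:87568957-87569256, minus strand) is shown as the start with H3K27ac in all 8 lists and wider coverage in each Fast pair. Its TATAAA match lay 5 to 10 bases downstream of the start, on the opposite strand.
Sult1d1: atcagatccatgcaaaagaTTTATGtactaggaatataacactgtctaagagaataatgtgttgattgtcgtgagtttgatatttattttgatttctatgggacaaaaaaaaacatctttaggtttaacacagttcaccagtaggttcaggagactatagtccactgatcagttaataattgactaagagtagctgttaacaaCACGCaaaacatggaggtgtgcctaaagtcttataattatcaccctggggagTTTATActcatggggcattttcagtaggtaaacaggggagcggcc

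Counted over the set, H3K27ac coverage was higher in both Fast than both Fed lists of each state at 2 of 87 tested genes (all genes 5.35%) and lower at 1 (0.859%). H3K9ac coverage was higher at 1 of 86 (1.62%) and lower at 2 (2.25%). No gene passed Benjamini-Hochberg adjustment over all 13269 genes tested for H3K27ac, where the smallest adjusted permutation p was 0.895, or over 16368 for H3K9ac, where it was 1.0. At the smallest unadjusted p of 0.0556 were 3 of the xenobiotic genes for each mark, and none could fall below 0.05.

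**Figure D4:**
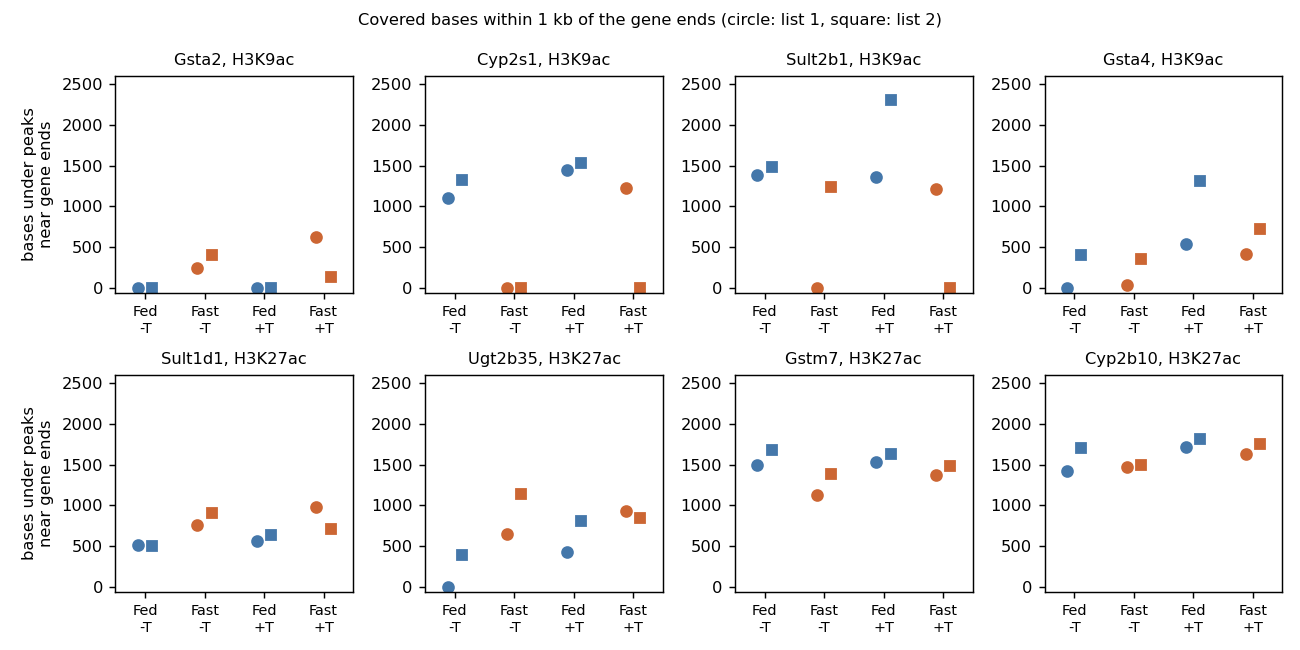
Bases under peaks within 1 kb of the gene ends (y axis) in each list, by group (x axis), for the 8 genes at the smallest permutation p, circles for list 1 and squares for list 2. Gsta2 is at 0 in the 4 Fed lists, and Cyp2s1 is at 0 in 3 of the 4 Fast lists.

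Tetracycline went with small differences. The average number of H3K27ac-marked genes was 60.75 without and 66.0 with it, a difference of 5.25, and of H3K9ac-marked genes 38.5 and 41.5, a difference of 3.0, both under the pooled SDs. Over all 21887 genes the H3K27ac average was 10634.25 without and 10212.75 with tetracycline, a difference of -421.5. The H3K9ac average over all genes was 10199.75 and 10332.75, a difference of 133.0. In the xenobiotic genes the H3K27ac difference was -2.25 with the upper 0.5 of scores, and 10 and 0.5 from list 1 and list 2 alone. The H3K9ac difference was 8.5 and -2.5 from list 1 and list 2 alone, and 0.75 without the Ugt1a genes, so neither direction held throughout. By 3 or more lists, Cyp2j6 had H3K27ac in 3 lists with and 0 without tetracycline (0.238% of all genes) and no gene the reverse (0.539%). Any tabled start put H3K27ac at Cyp2j6, which oxidises arachidonic acid, in all 8 lists. Cyp2u1 and Cyp2j9 had H3K9ac in 3 lists with and 0 without tetracycline (0.631%), and no gene the reverse (0.480%). With any tabled start Cyp2j9 had H3K9ac in 0 Fed and 1 Fast lists, and Cyp2u1 was not in the start table.

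In covered bases, Cyp2b10 had 1419 and 1701 H3K27ac bases in Fed and 1464 and 1491 in Fast lists without tetracycline. With it, Fed lists had 1719 and 1807 and Fast lists 1630 and 1751. The lists with tetracycline were higher within each feeding state, by 208.0 bases (exact permutation p = 0.0556, 1 of 87 genes higher, all genes 0.957%; lower at 0, all genes 2.13%). With a window of 2.5 kb the Cyp2b10 difference was 181.25 bases (exact permutation p = 0.333). Gsta4, which conjugates lipid peroxidation products, had 0 and 407 H3K9ac bases in Fed and 37 and 358 in Fast lists without tetracycline. With it, Fed lists had 536 and 1306 and Fast lists 414 and 725 (difference 544.75, exact permutation p = 0.0556, 1 of 86 genes higher, all genes 1.34%; lower at 0, all genes 1.21%). The Gsta4 difference was 229.5 with the upper 0.5 of scores (exact permutation p = 0.667) and 358.75 with peaks of at least 500 bp (exact permutation p = 0.333). The smallest adjusted permutation p for tetracycline was 1.0 for both marks.

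A run of Cyp4 genes on chromosome 4, from Cyp4x1 through the Cyp4a genes to Cyp4b1, had more of its length under H3K27ac in Fast lists. Cyp4a enzymes oxidise fatty acids and are known PPARα targets. H3K27ac covered 0.654% and 0.822% of the 543 kb cluster in the Fed lists without tetracycline and 1.78% and 2.79% in the Fast lists. With tetracycline it covered 0.426% and 1.81% in Fed and 2.02% and 2.23% in Fast lists. Both Fast lists lay above both Fed lists in each state, by 1.28 percentage points on average. Of 11 clusters of 5 or more genes this was the one with that order, and 10.3% of genome bins of 500 kb had it, with 0.0583% in the reverse order. So 1 of 11 clusters is near the share of the genome, and the order is not particular to this cluster.

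In all, 2 regions in this cluster, between genes, had an H3K27ac peak in each of the 4 Fast lists and in no Fed list, chosen after their values were seen. They were at chr4:115264318-115265332, 9377 bp from Cyp4a29, and chr4:115278091-115279230, 19816 bp from Cyp4a12a. They were 2 of 391 regions in the 11 clusters, where 0.400% of 112301 merged regions genome-wide had that pattern. With the same number of top-scoring peaks per list the first remained and the second did not. Ends of Cyp4a10, a fatty acid hydroxylase, had 0 and 729 bases in Fed and 993 and 1367 in Fast lists without tetracycline, and 0 and 1180 against 1163 and 1584 with it (difference 799.5, exact permutation p = 0.111). Cyp4a14, a further PPARα target, had neither mark in any list.

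**Figure D5:**
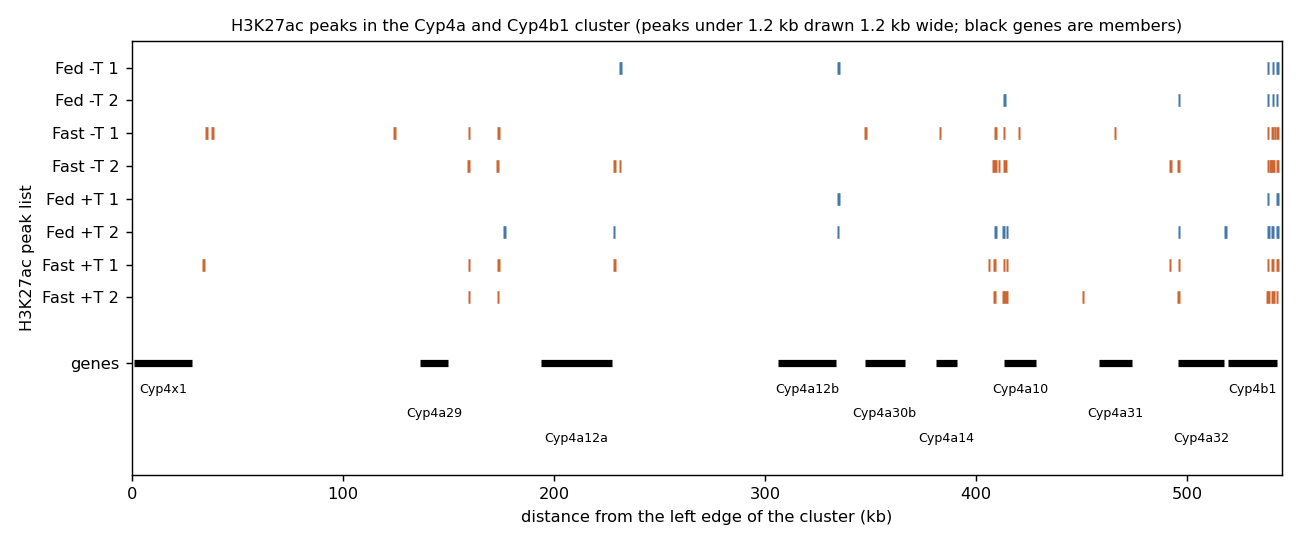
H3K27ac peaks (coloured bars, Fed blue and Fast orange) in the 8 lists (rows) along the Cyp4 cluster on chromosome 4, in kb from its left edge, with genes in black. A pair of positions between Cyp4a29 and Cyp4a12a have a peak in all 4 Fast lists and in no Fed list.

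The regulators and partners of these enzymes are set, with no test, beside the genome, where 33.6% of genes had H3K27ac in every list and 21.1% had H3K9ac in every list. Of 12 sensors and regulators, 11 had H3K27ac in all 8 lists, among them Nr1i2 (PXR), Nr1i3 (CAR), Ahr, Ppara, Hnf4a and Nfe2l2 (NRF2). The exception was Ahrr, the AHR repressor, in 1 list. Of 13 genes that supply electrons and cofactors 8 had it throughout, Por, the electron donor of P450s, among them. Of 10 transporters 4 had it throughout, Abcc2 among them, while Abcb1a, Abcb1b and Abcc4 were marked in no H3K27ac list. Abcc1 had it in 0 Fed and 3 Fast lists. Of 21 other oxidation and conjugation enzymes 14 had it throughout, and Cyp1a1, the classical AHR target, had it in 1 list. H3K9ac was present in all 8 lists at 6 of the 12 regulators, 4 of the 13 cofactor genes, 1 of the 10 transporters and 2 of the 21 other enzymes.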

How the data were processed

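The submitters' processing notes name FastQC, Bowtie, SAMtools and the build mm10. Peak caller settings and the use of any IgG control are not given in the sources used here. The authors deposited 16 peak lists, 2 for each of 8 samples, each peak with a score of no stated unit and of at least 50; the deposited names call the data downsampled. Here the score was used for ordering or filtering peaks inside a single list and for describing single peaks.

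Peaks on chromosomes 1 to 19, X and Y were set against RefSeq GRCm38.p6 genes with Python 3.11.15, numpy 2.4.6 and pandas 2.3.3. Covered bases were tested by exact permutation of labels within the other factor's states, 36 arrangements, two-sided, and adjusted by Benjamini-Hochberg over all genes with a covered base. The steps were tested on simulated lists with planted genes. Clusters were runs of 5 or more genes of a family with gaps of at most 1 Mb.

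Named genes were those marked in all lists of both marks, those differing by 3 or more of 4 lists between states, those at the smallest permutation p in the same direction in every pair, and a fixed list of intestinal and drug-response genes; further members are named to account for families. Members and lists were chosen with earlier results of these data known.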

Additional observations from a re-analysis of the deposited data

Results flagged for a closer look

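For 4 genes, covered bases moved one way with fasting in both lists without tetracycline and the other way in both lists with it; the difference between states was not tested. The same pattern was found in 319 of 13269 genes for H3K27ac and 357 of 16368 for H3K9ac. Ugt1a1 H3K27ac differed by 385.5 bases (Fast minus Fed) without and -280.5 with tetracycline, a change of -666.0. Gstm4 H3K27ac differed by 318.0 and -153.5, a change of -471.5. Gstt3 H3K9ac differed by -984.0 and 1153.5, a change of 2137.5. Cyp4f17 H3K9ac differed by 289.0 and -881.5, a change of -1170.5.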

How the results depend on the processing

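The H3K9ac counts moved most, and the cause was not tested. The number of genes marked, Fast minus Fed, was -7.75 for H3K9ac with every list reduced to an equal number of its best peaks, against 4.5 with all peaks, and ran from -11.5 to 20.5 when lists of number 1 or 2 were left out. It was -1.0 with peaks of at least 500 bp and -3.75 without the Fast lists of number 1. H3K9ac in all 8 lists was found at 2 genes with the upper 0.5 of scores, 2 with equal peak numbers and 13 with a window of 2.5 kb. With either list number left out, H3K9ac was in all 4 remaining lists at 17 genes. By construction, removing peaks can only lower a count of genes marked in all lists, and a wider window can only raise it. Leaving out lists can only raise that count or the counts of all lists of 1 feeding state and none of the other, or keep them equal. H3K9ac in all Fast and no Fed list was found at 0 genes with the upper 0.5, with equal peak numbers and with peaks of at least 500 bp, and at up to 9 without list 2. H3K9ac in all Fed and no Fast list was found at 2 genes without the Fast lists of number 1 and up to 3 when a list number was left out. H3K27ac in all Fast and no Fed list was found at 2 genes with the upper 0.5, 2 without the Fast lists of number 1, and 2 to 8 when a list number was left out, and in all Fed and no Fast list at up to 2. The other 86 alternative values of the counts and of the Cyp4 cluster stayed within the spread between lists, which is wide enough to hold changes of sign, or within 1.5 times. No p could pass 0.05 under any setting. Of 63 alternative values of single genes, 50 kept their sign and stayed within 1.5 times the reported value and 13 did not. For each gene 1 of the 50, from pairing lists of the same number, equals the reported value by construction and could not move. Among the 13, Gsta2 was 0.0 with the upper 0.5 and with equal peak numbers and 31.75 with peaks of at least 500 bp. Gsta4 was 229.5 and 358.75 with the upper 0.5 and the wider peaks. With a window of 2.5 kb Sult2b1 was -1751.75 (exact permutation p = 0.278), Ugt2b35 974.25 and Sult1d1 803.25 (exact permutation p = 0.0556 each). Within 1.5 times at that window, Gstm7 was -206.5 and Cyp2b10 181.25 (exact permutation p = 0.333 each). Gsta4 was 693.5 (exact permutation p = 0.111). Cyp2s1, at -1084.25, kept an exact permutation p of 0.0556 there. Gsta2, at 583.0, was beyond 1.5 times and among the 13, also with an exact permutation p of 0.0556. Cyp2s1 was -659.0 without list 2. Permuting within the 4 same-number pairs allows no p below 0.125; the names of the lists, not the labels, give these numbers. Leaving out the Fast lists of number 1, any tabled start and leaving out Ugt1a were chosen after seeing the data. Depth is unknown, so a missing peak is no evidence that a mark is absent.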
